A study of Mus musculus with 6 samples.

Results

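The genes described here are 46 antioxidant, glutathione and NRF2 target genes, taken by symbol from a table of 55414 Ensembl gene identifiers. Each of the 46 symbols matched 1 identifier. They fall into 5 classes: superoxide and peroxide removal (15 genes), glutathione (12), thioredoxin (6), NADPH supply (5), and the NRF2 core with other targets (8). RNA sequencing was done on TM4 cells, an established line from mouse testis used as a Sertoli cell model, as 3 control and 3 VC libraries. The labels conflict on the agent: the series title speaks of vitamin C, the agent field and design text speak of valine, and VC is kept here as the group's name. Neither dose nor exposure time was given in the labels, and both groups were the same male line with no other stated agent. Nothing in the labels says that replicates were separate cultures, so p-values measure only the spread between these libraries, which may be technical.

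NRF2, encoded by Nfe2l2, is a transcription factor that KEAP1 holds at a ubiquitin ligase for degradation. Oxidants and electrophiles modify KEAP1, NRF2 then accumulates, pairs with small MAF proteins, and binds antioxidant response elements in front of genes for glutathione synthesis, thioredoxin recycling, NADPH production and quinone detoxification. NRF2 is controlled largely at the protein level, so its targets' transcripts are the usual readout. In the testis, Sertoli cells shield germ cells from oxidative damage, and ascorbate is a reductant that works beside the glutathione and thioredoxin systems.

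No member passed the test between VC and control. Of the 46 members, 44 reached a deposited value of at least 1 in at least 3 of the 6 libraries and were tested; Gpx3 and Mgst1 did not. The values are on a transcripts-per-million-like scale corrected for gene length, so that levels of different genes can be compared. By limma on log2(value + 1), with Benjamini-Hochberg adjustment over all 13972 tested genes and a threshold of 0.05, 0 of 44 members were called, where 0.687% of all tested genes were (0.429% higher and 0.258% lower). At an unadjusted p under 0.05 there were 8 members (18.2%), against 17.2% of all genes. A limma-voom fit of reads recovered from the values called 1 member, Prdx4, lower in VC (adjusted p = 0.0441), with 4.07% of all genes called by that fit and 1.76% called lower. Member differences were small: the largest was 0.27 log2 units in size. The 95% intervals of limma's log2 fold change lay within 0.3 either way for 31 members and within 0.5 for 40. The widest reached -0.57 (Gstt1) and 0.70 (Ephx1), both genes with 14 to 38 recovered reads per library.

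The libraries held 20405343 to 22313296 recovered reads. Control replicate 3 had the highest value of the 6 libraries in 23.3% of all tested genes and in 21 of the 44 members. That share was 12.5% in the lowest and 45.5% in the highest of 4 equal groups of tested genes by mean level. The same share was not counted for the other libraries. Of 14 Sertoli markers, Wt1, Fshr and Dmrt1 were at 0 in every library, and the markers together summed to 208 to 214 in control and 233 to 241 in VC. Most of that sum was Inhbb alone, at 151 to 158 in control and 173 to 179 in VC. Smooth muscle and peritubular markers summed to 722 to 798 in control and 471 to 490.2 in VC, while Leydig, germ cell, macrophage and endothelial sums stayed at or below 5.84 in every library. Most of the smooth muscle sum was Acta2 (589 to 646 in control, 378 to 387 in VC) and Actg2 (117 to 135, 81.2 to 92.0). Cnn1 was lower in VC too (15.1 to 17.2, 8.82 to 11.3), while Myh11 and Des stayed at or below 0.998 and overlapped. Ribosomal protein genes, which can follow RNA quality, had a median log2 fold change of -0.11 over 84 tested genes, and 78 of them were highest in control replicate 3. The part of that library, of the smooth muscle markers and of RNA quality in the results below was not tested. In bulk RNA a lower value can come from less RNA per cell or from fewer cells that carry it, and these cannot be told apart.

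**Figure D1:**
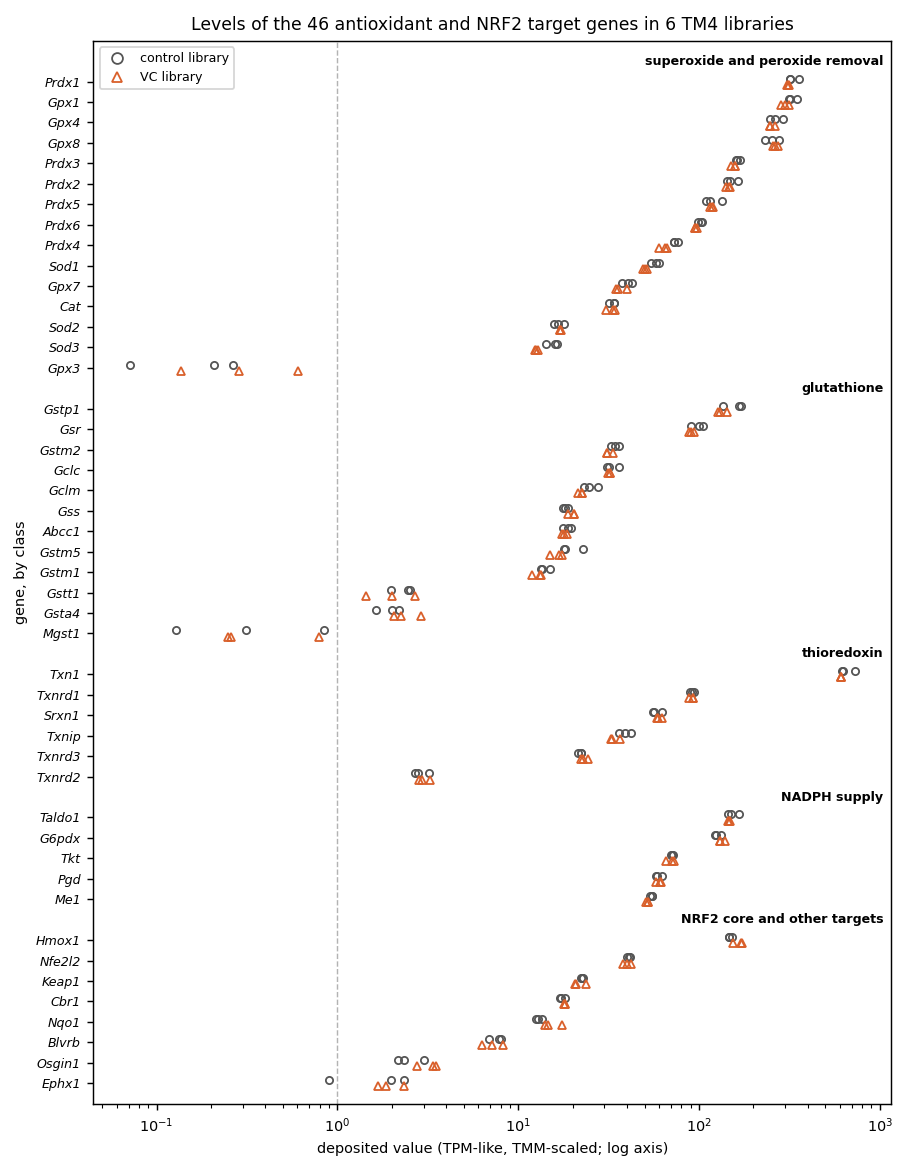
Deposited value (horizontal, log axis) of each of the 46 members in the 3 control libraries (circles) and 3 VC libraries (triangles), ordered by mean level within each class. Txn1 is the highest at 608 to 729, Gpx3 and Mgst1 lie below 1 (dashed line) in all 6 libraries, and the symbols of both groups lie close together in nearly every row.

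The regulator genes themselves differed by less than the spread between libraries. Nfe2l2 (ENSMUSG00000015839) was at 40.1, 41.0 and 41.6 in control replicates 1 to 3 and at 38.0, 39.9 and 42.3 in VC replicates 1 to 3. The lowest and the highest of these 6 values were both in VC. Its log2 fold change was -0.03 (95% interval -0.14 to 0.08, limma adjusted p = 0.785), and 0.04 with libraries scaled to equal totals. Keap1 (ENSMUSG00000003308), the sensor, was at 22.2, 22.7 and 22.7 in control and at 20.6, 20.8 and 23.8 in VC, again with both extremes in VC and with 10.9% of its exon length under an antisense gene (-0.05, interval -0.20 to 0.10, and 0.02 with equal totals).

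Among the 8 genes of the NRF2 core and other targets, Hmox1 and Nqo1 were those whose VC values all lay above the control values. Hmox1 (ENSMUSG00000005413) encodes heme oxygenase 1, which opens the heme ring to biliverdin, iron and carbon monoxide. It was at 147, 147 and 153 in control and at 170.0, 155 and 172 in VC, or 149 ± 3.72 against 166 ± 9.47 (mean ± SD, n = 3 each). VC replicate 2 came within 1.61 of the highest control. The log2 fold change was 0.15 (interval 0.04 to 0.27, limma adjusted p = 0.192). Nqo1 (ENSMUSG00000003849), which reduces quinones without releasing semiquinone radicals, was at 13.5, 12.6 and 13.0 in control and at 17.6, 14.6 and 14.0 in VC, where replicate 1 stood above the other VC libraries. It had a log2 fold change of 0.22 (interval 0.02 to 0.43, limma adjusted p = 0.262) on 155 to 224 reads per library. Both genes kept their groups apart, higher in VC, under equal totals, quantile normalization and read-based scaling. Neither passed limma's adjusted threshold in any of the 14 alternatives, with adjusted p from 0.0718 to 0.449 for Hmox1 and from 0.138 to 0.469 for Nqo1.

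The other genes of this class overlapped between groups. Osgin1, an oxidative stress-induced growth inhibitor, ranged from 2.16 to 2.99 in control and from 2.74 to 3.49 in VC (log2 fold change 0.27, interval -0.06 to 0.59). The biliverdin reductase Blvrb lay between 6.31 and 8.26 over the 6 libraries, the epoxide hydrolase Ephx1 between 0.903 and 2.35, and the carbonyl reductase Cbr1 between 17.0 and 18.2. The class median was 0.10 over 8 genes, against 0.01 for all tested genes, and it was 0.002 without control replicate 2 and 0.01 over the members left by a filter of 5.

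Promoters were read for the core of the antioxidant response element, TGACNNNGC, on either strand of 300 bases (250 before to 50 after the start; RefSeq, GRCm38.p6). Promoters were at hand for 39 of the 46 members, and 11 of these genes (28.2%) had a match, against 3781 of 27025 genes (14.0%) with a promoter in the table. Among the other pathway genes described further below, 14 of 71 with a promoter (19.7%) had a match. Bases outside this window were not searched, so a gene without a match may still hold the element elsewhere. Over single promoters the shares were 11 of 49 and 4071 of 32851 (12.4%). No promoter was at hand for Hmox1, Sod3, Prdx6, Gclc, Gsr, Gsta4 and Abcc1, so these were not searched. The counts by match below leave them out, among them Hmox1, which stood apart higher, and Sod3 and Prdx6, which stood apart lower. A match is a description of the letters and not a binding site. Shown are the matches in the 7 matched genes of a preset list, so that the element can be read beside their values. Capitals mark the match, and each stretch runs 5′ to 3′ along the gene's strand, where a match on the opposite strand reads GCNNNGTCA.
Gclm, chr3:122245393-122245461, plus strand, match 134 to 126 bases before the start: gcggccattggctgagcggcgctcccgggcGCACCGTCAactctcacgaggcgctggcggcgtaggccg
Prdx1, chr4:116685436-116685504, plus strand, match 133 to 125 bases before the start: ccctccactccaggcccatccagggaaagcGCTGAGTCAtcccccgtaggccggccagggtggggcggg
Txnrd1, chr10:82859084-82859152, plus strand, match 92 to 84 bases before the start: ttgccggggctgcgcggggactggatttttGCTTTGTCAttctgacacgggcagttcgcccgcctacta
Sod1, chr16:90220676-90220744, plus strand, match 56 to 48 bases before the start: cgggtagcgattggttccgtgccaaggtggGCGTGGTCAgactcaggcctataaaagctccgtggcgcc
G6pdx, chrX:74428899-74428967, minus strand, match 57 to 49 bases before the start: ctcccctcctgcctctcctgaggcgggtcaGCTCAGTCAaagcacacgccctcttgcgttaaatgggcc
Srxn1, chr2:152105542-152105570, plus strand, match 28 to 36 bases after the start: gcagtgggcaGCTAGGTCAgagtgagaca
Nfe2l2, chr2:75704865-75704913, minus strand, match 240 to 232 bases before the start: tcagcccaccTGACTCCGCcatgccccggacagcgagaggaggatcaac
The other 4 matches were in the promoters of Gstm5, Pgd, Mgst1 and Me1. Among the 10 matched members that were tested, the log2 fold changes ran from -0.24 to 0.08 with a median of -0.05, and 5 stood apart lower and 0 higher. The 27 tested members with a promoter and no match had a median of -0.06, with 5 apart lower and 2 higher. Over all tested genes 11.6% stood apart lower and 13.9% higher. In the highest of 4 equal groups by mean level these shares were 26.6% and 11.3%. Of the matched members, Prdx1, Txnrd1, Sod1, G6pdx, Srxn1, Pgd and Me1 were in that group. With equal totals, the matched genes apart lower overlapped except Sod1, and the unmatched genes apart lower overlapped except Prdx4. A link between match and change was not tested.

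Glutathione is made by glutamate-cysteine ligase, a catalytic subunit (Gclc) with a modifier subunit (Gclm), and then by glutathione synthetase (Gss). Gclc was at 36.2, 31.8 and 30.9 in control and at 32.3, 32.1 and 31.4 in VC. Only control replicate 1 stood out, and the log2 fold change was -0.04 (interval -0.19 to 0.11), or 0.03 with equal totals. Gclm was at 27.7, 23.2 and 24.6 in control and at 21.3, 22.5 and 22.5 in VC. Every VC value lay below every control value (-0.17, interval -0.34 to -0.01, limma adjusted p = 0.268), but the groups overlapped with equal totals. Gss went the other way, at 17.7, 18.8 and 18.2 in control and at 20.4, 20.4 and 18.8 in VC (0.12, interval -0.01 to 0.24). Its VC replicate 3 exceeded the highest control by 0.016, and the groups overlapped after quantile normalization and on read-based scaling. Genes on the opposite strand overlap the exons of Gss: Acss2 over 6.68% of their length, Gssos2 over 6.51% and Gssos1 over 5.44%.

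Glutathione reductase, Gsr, which restores reduced glutathione with NADPH, was at 105, 90.5 and 100.02 in control and at 93.6, 90.8 and 87.6 in VC. The groups overlapped (-0.11, interval -0.25 to 0.02). Gstp1 had the highest level among the member transferases, at 136, 166 and 170.2 in control and at 143, 130.005 and 127 in VC. Control replicate 1 lay among the VC values, and the log2 fold change was -0.23 (interval -0.45 to -0.02, limma adjusted p = 0.258). Gstm5 was at 18.0, 18.1 and 22.9 in control and at 16.8, 15.03 and 17.5 in VC, with control replicate 3 high (-0.24, limma adjusted p = 0.3003). Gstm1 was at 14.9, 13.4 and 13.5 in control and at 13.3, 11.98 and 13.2 in VC (-0.11, limma adjusted p = 0.440). In both Gstm genes the groups stood apart by a narrow margin on the deposited scale and overlapped with equal totals, and 13.9% of Gstm5's exon length overlaps an antisense gene. Gstm2 was lower on average too, with overlap, at 32.8 to 36.1 in control and 30.9 to 33.4 in VC. Gstm and Gstp genes have close paralogs, and how reads shared between copies were counted is not given in the sources used here. Gsta4 (1.63 to 2.89), Gstt1 (1.44 to 2.68) and the microsomal Mgst1 (0.128 to 0.838) were low throughout. Abcc1, a pump that exports glutathione conjugates, lay between 17.4 and 19.6. The class had a median of -0.11 over 11 tested genes, 9 of them below 0.

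In the thioredoxin system, Txn1 carries electrons from thioredoxin reductase to peroxiredoxins and other oxidised proteins. It was the member with the highest level, at 620.5, 624 and 729 in control and at 609.7, 608 and 611 in VC. The VC libraries lay within 3.06 of each other and below all controls, and control replicate 3 was far above the other controls. The log2 fold change was -0.10 (interval -0.26 to 0.05, limma adjusted p = 0.451), and the groups overlapped with equal totals and after quantile normalization. The cytosolic reductase Txnrd1, a selenoprotein and NRF2 target, was at 89.6, 93.6 and 92.0 in control and at 93.2, 92.8 and 88.1 in VC. Its log2 fold change was -0.01, with a narrow interval (-0.09 to 0.08), and 0.07 with equal totals. Srxn1, sulfiredoxin, which repairs over-oxidised peroxiredoxins, was at 55.9, 56.2 and 62.7 in control and at 59.4, 58.6 and 62.1 in VC (0.04, interval -0.09 to 0.17). Txnip, which binds and inhibits thioredoxin, ranged from 36.2 to 42.2 in control and from 32.6 to 36.5 in VC (-0.20, interval -0.36 to -0.03, limma adjusted p = 0.229). Its groups overlapped only through control replicate 1 (36.2) and VC replicate 3 (36.5), and 19.4% of its exon length overlaps a gene on the opposite strand. Whether the counting used strand is not given, and without strand such reads cannot be told apart. Txnrd3 lay between 21.5 and 24.4, and the mitochondrial reductase Txnrd2 between 2.67 and 3.27.

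NADPH feeds both systems. G6pdx, which opens the pentose phosphate pathway, was at 124, 123 and 132 in control and at 139, 130.006 and 131 in VC. Control replicate 3 lay among the VC values (0.08, interval -0.03 to 0.18, limma adjusted p = 0.419), and with equal totals or quantile normalization the VC values all lay higher. Its exons overlap those of Ikbkg, on the other strand, over 13.6% of their length. Taldo1, transaldolase, was at 149.8, 144 and 167 in control and at 145, 149 and 147 in VC (-0.06, interval -0.19 to 0.07, and 0.01 with equal totals). Me1, the cytosolic malic enzyme, was at 53.6, 55.3 and 54.7 in control and at 52.2, 52.2 and 50.9 in VC, lower in every VC library (-0.07, interval -0.15 to 0.01), with overlap under equal totals. Pgd, 6-phosphogluconate dehydrogenase, ranged from 57.7 to 62.5 and the transketolase Tkt from 65.7 to 72.3 over the 6 libraries. No member of this class had an unadjusted limma p under 0.05.

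**Figure D2:**
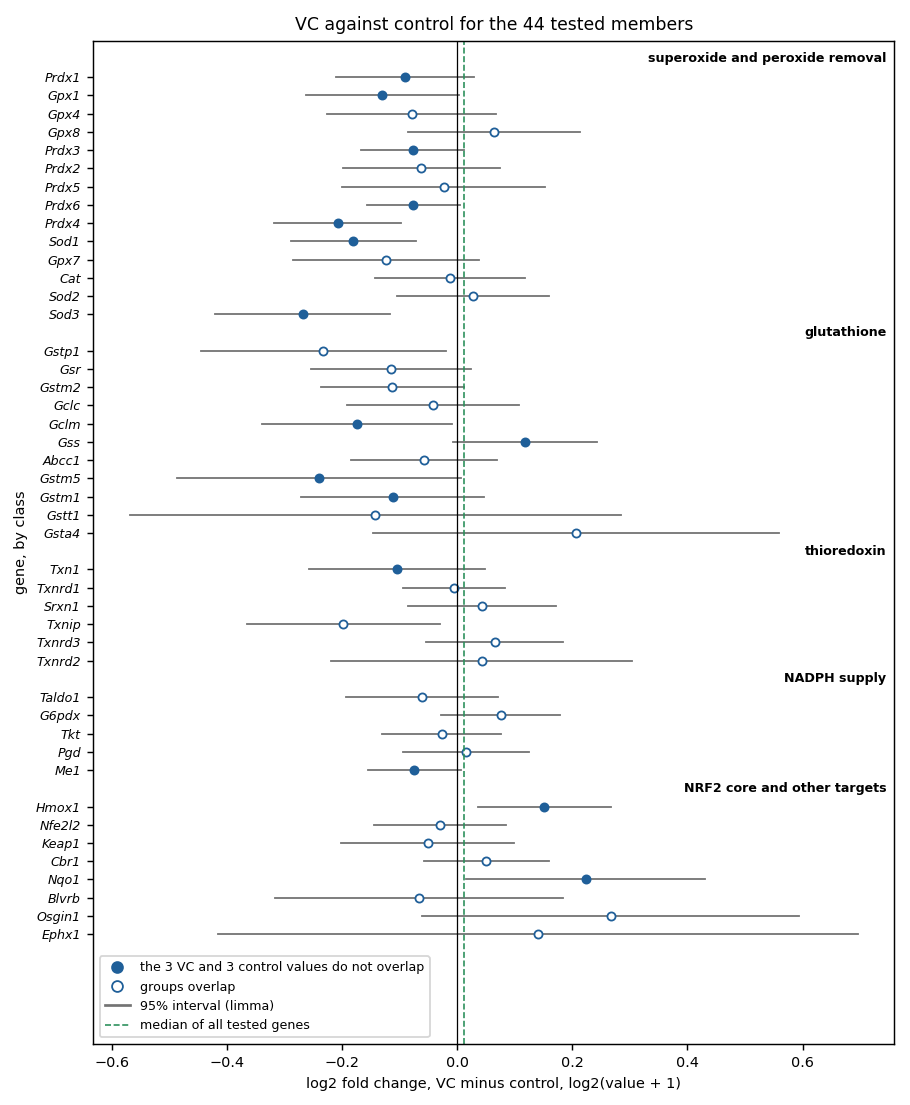
Log2 fold change, VC minus control on log2(value + 1), of the 44 tested members (points) with limma's 95% interval (lines). Filled points mark the 15 genes whose VC and control values do not overlap, 12 of them left of 0, and the dashed line marks the median of all tested genes at 0.01.

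Superoxide dismutases turn superoxide into hydrogen peroxide, in the cytosol (Sod1), the mitochondrial matrix (Sod2) and outside the cell (Sod3). Sod1 (ENSMUSG00000022982) was at 54.5, 57.7 and 59.9 in control and at 50.4, 51.7 and 49.2 in VC, or 57.3 ± 2.71 against 50.4 ± 1.26 (mean ± SD, n = 3 each). The groups stood 2.74 apart (-0.18, interval -0.29 to -0.07, limma adjusted p = 0.126). Sod3 (ENSMUSG00000072941) was at 14.2, 15.9 and 16.3 in control and at 12.4, 12.9 and 12.6 in VC. It had the largest member difference, -0.27 (SE 0.064, interval -0.42 to -0.12, limma adjusted p = 0.117). Sod2 was at 15.8, 16.7 and 17.8 in control and at 17.1, 17.2 and 17.0 in VC. Its VC values lay inside the control range (0.03, interval -0.10 to 0.16, and -0.004 after quantile normalization).

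Peroxide is removed by catalase, glutathione peroxidases and peroxiredoxins. Cat was at 33.8, 31.9 and 34.0 in control and at 30.8, 34.5 and 33.6 in VC, with no separation (-0.01, interval -0.14 to 0.12, and 0.06 with equal totals). Gpx1, a cytosolic selenoprotein, was at 317, 314.4 and 351 in control and at 285, 297 and 314.2 in VC. Its groups touched, 0.239 apart, and overlapped with equal totals and after quantile normalization (-0.13, limma adjusted p = 0.295). Gpx4, which reduces lipid hydroperoxides in membranes and guards against ferroptosis, was at 248, 264 and 290.2 in control and at 265, 246 and 248 in VC (-0.08, interval -0.23 to 0.07). Of the endoplasmic reticulum peroxidases, Gpx7 ranged from 34.9 to 42.4 and Gpx8 from 233 to 276, both with overlap. The secreted Gpx3 lay between 0.0710 and 0.605, on 1 to 9 reads.

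Prdx4 (ENSMUSG00000025289), the peroxiredoxin of the endoplasmic reticulum, had the smallest p of all members. It was at 72.6, 72.4 and 76.1 in control and at 60.2, 66.3 and 64.7 in VC, or 73.7 ± 2.08 against 63.7 ± 3.14 (mean ± SD, n = 3 each). Every VC value lay at least 6.16 below every control value. The log2 fold change was -0.21 (SE 0.047, interval -0.32 to -0.10, limma adjusted p = 0.103); over the 14 alternatives limma's adjusted p ran from 0.0441, on recovered reads, to 0.276. The cytosolic Prdx1, the member of this class with the highest level, was at 317, 318 and 357 in control and at 309.9, 313 and 307 in VC (-0.09, limma adjusted p = 0.408). The mitochondrial Prdx3 was at 162, 161 and 169 in control and at 157, 149.9 and 158 in VC (-0.08, limma adjusted p = 0.346). Prdx6, which also reduces phospholipid hydroperoxides, was at 98.2, 102.0 and 104 in control and at 96.9, 95.6 and 95.4 in VC (-0.08, limma adjusted p = 0.311). In all 3 genes the VC values lay below the controls by a narrow margin, and under equal totals their groups overlapped, as those of Prdx1 and Prdx3 also did after quantile normalization. Prdx2 (141 to 165) and Prdx5 (109 to 134; 19.1% of its exon length is shared with Trmt112 on the opposite strand) overlapped on every scale. With equal totals Prdx2 was at a log2 fold change of 0.01 and Prdx5 at 0.05, against -0.06 and -0.02 on the deposited scale.

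Over the members as a whole, more values were lower than higher in VC on the deposited scale. The median log2 fold change was -0.06 with 30 of 44 members below 0, against 0.01 and 46.3% of all tested genes below 0. The groups did not overlap in 15 members, with VC higher in 3 and lower in 12 (34.1% of members), where 25.6% of all tested genes stood apart (13.9% higher and 11.6% lower). The members are abundant genes: 21 of the 44 were in the highest of 4 equal groups of tested genes by mean level, which starts at a value of 42.5. In that highest group 16 of the 21 members were below 0, with a median of -0.07, against 64.2% and -0.04 for all its genes. There 8 members stood apart lower and 1 higher, where 26.6% of all its genes stood apart lower and 11.3% higher, and 15 members had their highest value in control replicate 3, against 45.5% of all its genes. The other 23 members lay in the lower groups, where more genes were above 0 than below. Of these members 14 were below 0, with a median of -0.04, against 40.3% and 0.03 for all genes of those groups, and 4 stood apart lower and 2 higher, against 6.61% and 14.8% of all genes. These shares describe the members and were not tested. In the superoxide and peroxide class 7 of 14 genes stood apart lower and 13 of 14 were highest in control replicate 3.

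**Figure D3:**
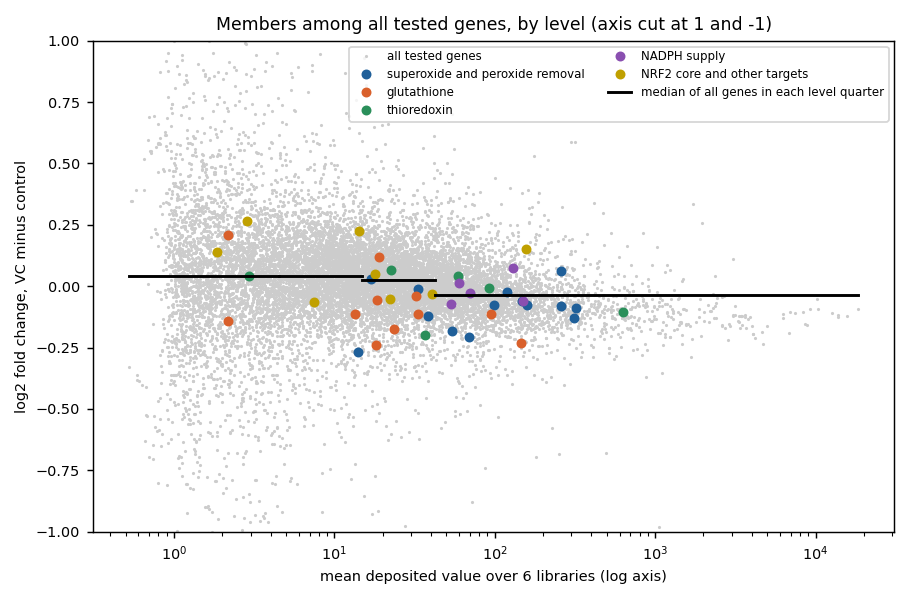
Log2 fold change, VC minus control (vertical, shown from -1 to 1), against mean deposited value over 6 libraries (horizontal, log axis) for all 13972 tested genes (grey) and the 44 members (coloured by class). Black lines are medians of all genes in 4 equal groups by level, and the highest group's line lies at -0.04, while the other 3 lie between 0.02 and 0.04; of the 21 members in the highest group, 16 lie below 0.

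These values depended on the scale. With libraries scaled to equal totals the median of all genes was 0.08 and that of the members 0.01, and 10 members stood apart higher and 3 lower, with 30.4% of all genes apart (4.6% lower). After quantile normalization 12 members stood apart, 3 higher and 9 lower, with 23% of all genes apart (10.9% lower). On the scale of recovered reads 14 did, 2 higher and 12 lower, with 25.8% of all genes apart (12.8% lower). Without control replicate 3 the members' median was -0.03, and 8 stood apart higher and 13 lower, with 37.1% of all genes apart (17.3% lower) in that smaller comparison. Leaving out any library keeps genes apart that were apart already, and can only add to them. With each library left out in turn, 17 to 22 members stood apart, against 33.0% to 37.1% of all genes. The members' median was then between -0.08 (without control replicate 2) and -0.03. Sod1, Sod3 and Prdx4 (lower) and Hmox1 and Nqo1 (higher) were the 5 members that kept their groups apart, in the direction they had on the deposited scale, under all 3 other scalings.

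**Figure D4:**
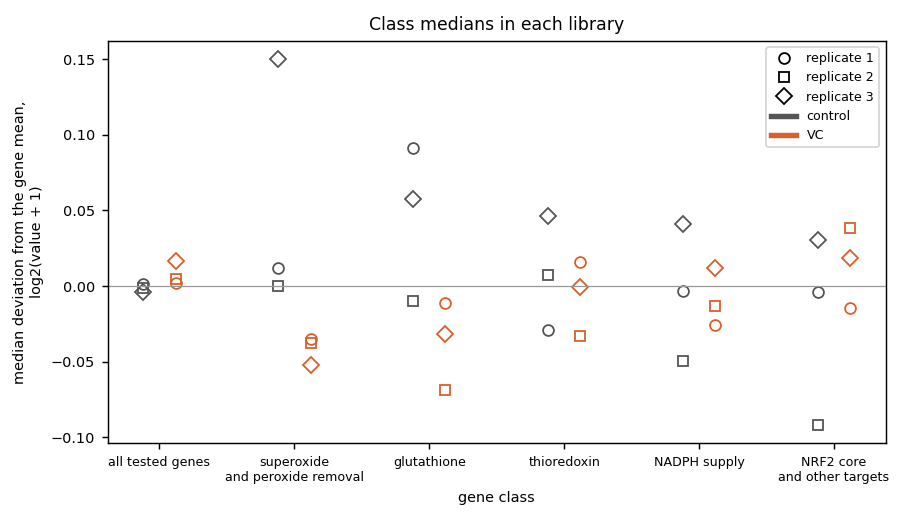
Median deviation of each class from its genes' means over 6 libraries, on log2(value + 1), for each control (grey) and VC (orange) library, with replicates 1, 2 and 3 as circles, squares and diamonds. In superoxide and peroxide removal control replicate 3 is at 0.15, the other controls are at 0.01 and 0.0002, and the VC libraries lie from -0.05 to -0.03.

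The wider pathway was read from a second list. Of 85 other genes with a part in NRF2 control, glutathione turnover, thioredoxin relatives, NADPH supply and detoxification, 67 were tested and 0 were called by limma (0.687% of all tested genes), with 14 at an unadjusted p under 0.05 (20.9%, against 17.2% of all tested genes). Limma called 2 of them with equal totals, where it called 1.55% of all genes, 1 after quantile normalization (0.816% of all genes), and limma-voom called 3 on recovered reads (4.07% of all genes). Idh1, the cytosolic isocitrate dehydrogenase that makes NADPH, was at 51.9, 49.5 and 54.1 in control and at 61.4, 58.9 and 62.5 in VC (0.23, interval 0.12 to 0.34, limma adjusted p = 0.0822; 0.0375 on reads and 0.0290 with equal totals). Sqstm1, the autophagy receptor p62 that binds KEAP1 and is itself an NRF2 target, was at 239, 255 and 256 in control and at 278, 289 and 290.3 in VC (0.19, interval 0.10 to 0.29, limma adjusted p = 0.0872). It passed with equal totals (adjusted p = 0.0308), quantile normalization (0.0381) and on reads (0.0288), each time higher in VC; 17.3% of its exon length overlaps Mrnip on the opposite strand. Msrb3, a methionine sulfoxide reductase, was at 42.3, 42.9 and 40.9 in control and at 36.0, 37.2 and 37.5 in VC (-0.18, limma adjusted p = 0.0939; 0.0445 on reads).

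Among the other genes whose groups stood apart, the omega-class transferase Gsto2, with dehydroascorbate reductase activity, was at 16.5, 14.0 and 16.8 in control and at 21.6, 19.3 and 19.8 in VC (0.34, interval 0.15 to 0.53, limma adjusted p = 0.113). The glutaredoxin Glrx3 was lower in VC (78.7 ± 3.08 against 71.5 ± 0.970, limma adjusted p = 0.160), as was the mitochondrial NAD kinase Nadk2 (30.9 ± 0.820 against 26.9 ± 1.87, limma adjusted p = 0.171; mean ± SD, n = 3 each). In all, 26 of the 67 stood apart (38.8%), 13 higher and 13 lower (19.4% each), against 25.6% of all tested genes (13.9% higher and 11.6% lower), and the median log2 fold change of the 67 was 0.003. Over all tested genes the share apart rose with level, from 14.9% in the lowest to 37.9% in the highest of 4 equal groups. The 67 genes were not split by level, so the part of level in their share was not tested. By role, VC was apart and higher in 3 and lower in 2 of 10 NRF2 partners and regulators, 4 and 3 of 21 genes of glutathione supply and turnover, 2 and 3 of 11 thioredoxin relatives, 1 and 2 of 9 NADPH genes, and 3 and 3 of 16 other targets.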

How the data were processed

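RNA from TM4 cells (3 control and 3 VC libraries) was prepared with a TruSeq kit, per the labels' protocols. The submitters' processing notes name the aligner HISAT2 and the build GRCm39; neither the counting tool, the strand setting nor the annotation release is given there. What the authors deposited is a signal per gene that behaves as a TPM-like value times 1 factor per library; that scale was inferred from the values. Columns were matched to samples by group letter and number. Symbols and exon lengths came from GENCODE M21, an annotation of the earlier build GRCm38, matched for 52081 of 55414 identifiers; promoters were matched by symbol. Values times exon length gave whole reads (within 0.1 read) for 98.7% to 98.9% of values tested in each library; these reads served for depth and for the limma-voom alternative, with trimmed-mean (TMM) factors.

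Genes reaching 1 in 3 or more libraries were tested as log2(value + 1) in limma 3.58.1 (R 4.3.3; empirical Bayes with trend, two-sided, Benjamini-Hochberg over 13972 genes, no covariate). The procedure was run on simulated data, and the outcome is not given here. The planted changes were larger than any member difference, so that run does not measure how well differences of the members' size are found. Members, classes, the list of other genes and the tests were chosen with earlier results of these data known. Values per library are given for members apart between groups, the 2 highest of each class and 16 preset genes; members outside that rule are given by range; and other genes are named if called or among the 6 smallest p with groups apart. Nnt, with 2 overlapping identifiers, was left out. Alternatives changed pseudocount, filter, scaling, block, test and libraries; counts of genes apart under them were added after seeing the data.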

Additional observations from a re-analysis of the deposited data

How the results depend on the processing

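Limma called 0 members under every alternative except limma-voom on recovered reads, which called 1 (Prdx4), and 28 of 44 members kept their sign under every alternative that tested them. The changes of filter and the replicate block leave each gene's log2 fold change as it was, so no sign could turn under them. Over all genes, against 96 calls, limma called 30 with no filter, 183 with a filter of 5, 217 with equal totals, 561 with limma-voom and 0 to 83 with 1 library left out (0 without control replicate 2, VC replicate 1 or VC replicate 2, and 1 without control replicate 1 or VC replicate 3). The replicate block gave 0 calls over all genes. Same-numbered libraries did not deviate together (correlations of -0.019, -0.011 and 0.005 over 13972 genes), so the numbers were not taken as pairs. Other pathway genes called were 2 with equal totals, 1 with quantile normalization and 3 with limma-voom. With equal totals the median of all genes moved to 0.08; the members' median was then 0.0109, and class medians were -0.0062 (superoxide and peroxide), -0.043 (glutathione), 0.081 (thioredoxin), 0.0449 (NADPH) and 0.1539 (NRF2 core). With 1 library left out the glutathione median ran from -0.1459 to -0.0675 and the NRF2 core median from 0.0022 to 0.1236; the latter was 0.0454 with a pseudocount of 5 and 0.0102 with a filter of 5. The deposited values summed to 1007530 to 1058210 in the control libraries and to 966031 to 983802 in the VC libraries. Scaling to equal totals therefore raises VC values against control by construction. What lay behind the difference in totals, and behind the other moves, was not tested. The sign turned in the other 16 members, as follows. With equal totals the log2 fold change was 0.0582 for Cat, 0.0098 for Prdx2, 0.0482 for Prdx5, 0.0289 for Gclc, 0.0107 for Abcc1, 0.0658 for Txnrd1, 0.011 for Taldo1, 0.0449 for Tkt, 0.0404 for Nfe2l2 and 0.0179 for Keap1. After quantile normalization it was -0.0036 for Sod2, 0.0162 for Prdx5 and 0.0295 for Txnrd1. With 1 library left out it ran from -0.0122 to 0.0701 for Sod2, -0.0444 to 0.0347 for Cat, -0.0863 to 0.0624 for Prdx5, -0.0842 to 0.0256 for Gclc, -0.2907 to 0.0049 for Gstt1, -0.0227 to 0.0196 for Txnrd1, -0.0029 to 0.1029 for Txnrd2, -0.0065 to 0.0497 for Pgd, -0.0555 to 0.0127 for Tkt, -0.0689 to 0.0065 for Nfe2l2, -0.152 to 0.0183 for Blvrb and -0.1039 to 0.3034 for Ephx1. Depth limits Gpx3, Mgst1, Gsta4, Gstt1 and Ephx1, with at most 38 reads in any library.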

Other observations

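Several enzymes of the same families had no signal in these libraries. Of the other pathway genes, Gpx2, Gpx5, Gpx6, Gsta1, Gsta2, Gstm6 and Gstm7, named after their values were seen, were listed at 0 in all 6 libraries. Gstm3, Gstm4, Gsta3, Abcc2, Abcc3 and Aldh3a1, picked in the same way, stayed at or below 0.152. Gsto1, an omega-class transferase also named after its values were seen, was at 299.8, 331 and 356 in control and at 358, 382 and 376 in VC, a level above that of Gstp1. Its log2 fold change was 0.18 (limma adjusted p = 0.228), with VC replicate 1 only 2.79 above control replicate 3. Glrx5, a mitochondrial glutaredoxin likewise picked after its values were seen, was at 37.6 in control replicate 1 and between 21.4 and 25.7 in the other 5 libraries.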
